A study of Mus musculus with 12 samples.

Results

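Messenger RNA of 48 genes of the cell cycle and of DNA replication was followed in lineage-negative bone marrow, the progenitor-rich fraction that remains once mature blood cells have been depleted by their surface markers. The genes were chosen by name for their function, and all 48 were found among the 31060 genes of the count table. By role they comprised 9 genes of origin licensing, 3 of nucleotide supply, 6 of G1/S control, 5 D cyclins and their partner kinases, 7 mitotic cyclins and kinases, 12 genes of spindle, kinetochore and mitotic exit, 2 proliferation markers and 4 inhibitors. RNA came from C57BL/6 mice with 4 genotype labels: wild type (WT, n = 3), Tet2+/- (Tet2het, n = 3), Ins2Akita/+ (Akita, n = 2) and Tet2+/-;Ins2Akita/+ (here the double-label libraries, n = 3). The product of Tet2 oxidises methylated cytosine in DNA, and Ins2Akita, a dominant insulin allele, is a model of diabetes. The labels give no age, no sex and no description of the Tet2 allele. They do not tell whether the libraries of a group are separate animals, and p-values therefore rest on a spread that may be technical.

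A cell that commits to division first makes D-type cyclins, which activate the kinases CDK4 and CDK6 and phosphorylate the retinoblastoma protein. E2F factors are then released and switch on cyclin E, the enzymes that make deoxynucleotides and the MCM helicase, which CDC6 and CDT1 load onto origins of replication. Genes of mitosis peak later. They are held down in resting cells through a promoter element known as CHR and activated through CCAAT boxes, which bind NF-Y, while inhibitors such as p21 (Cdkn1a) and p27 (Cdkn1b) block the kinases. In marrow, multipotent cells mostly rest, and the erythroid and granulocyte precursors derived from them divide fast.

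The promoters of 4 members show elements known from replication and mitosis genes, and they are printed to set these classes beside the values that follow. Each is the 180 bases before the start of the gene from RefSeq (build GRCm38.p6), 5′ to 3′ on the strand of the gene: Mcm5 at chr8:75109329-75109508, plus strand, Mcm7 at chr5:138171884-138172063, minus strand, Cdk1 at chr10:69352913-69353092, minus strand, and Cdc20 at chr4:118437344-118437523, minus strand. These starts differ from those of GENCODE M21, in which the Mcm7 gene reaches chr5:138172422, so the bases printed for Mcm7 lie inside that gene model. Capitals mark E2F-like, CHR-like and CCAAT letters on either strand.
Mcm5: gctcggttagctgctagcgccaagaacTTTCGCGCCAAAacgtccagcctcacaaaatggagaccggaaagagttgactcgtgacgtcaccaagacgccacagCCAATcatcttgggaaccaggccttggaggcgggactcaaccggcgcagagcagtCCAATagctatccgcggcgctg
Mcm7: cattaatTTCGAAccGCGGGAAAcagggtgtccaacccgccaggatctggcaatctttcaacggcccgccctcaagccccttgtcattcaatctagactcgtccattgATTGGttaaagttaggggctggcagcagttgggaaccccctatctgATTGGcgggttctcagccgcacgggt
Cdk1: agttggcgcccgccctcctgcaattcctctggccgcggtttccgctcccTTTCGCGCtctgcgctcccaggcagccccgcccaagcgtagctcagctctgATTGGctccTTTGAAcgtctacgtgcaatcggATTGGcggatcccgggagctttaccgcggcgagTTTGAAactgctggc
Cdc20: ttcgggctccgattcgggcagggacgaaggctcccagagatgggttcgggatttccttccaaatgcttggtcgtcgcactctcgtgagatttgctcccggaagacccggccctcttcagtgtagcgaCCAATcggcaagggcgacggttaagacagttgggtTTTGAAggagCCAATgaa

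In Mcm5 the E2F-like matches TTTCGCGC and GCGCCAAA overlap and begin 153 and 149 bases before the start. In Mcm7 an E2F-like GCGGGAAA begins 165 bases before the start, near a CHR-like TTCGAA that begins at 173 bases. Cdk1, whose kinase drives entry into mitosis, has an E2F-like TTTCGCGC 131 bases before the start and CHR-like TTTGAA 71 and 15 bases before it. Cdc20, an activator of the anaphase-promoting complex, has TTTGAA 18 bases before the start and CCAAT 53 and 8 bases before it. Promoter windows of 300 bases (250 before and 50 after a start) were listed for 38 of the 48 members, with 43 windows in all. The E2F-like letters searched on both strands (TTTCCCGC, TTTGGCGC, TTTCGCGC and TTTGCCGC) were in 6 of 8 licensing windows and in 2.26% of all 32851 windows of the table. CHR-like letters (TTTGAA and TTCGAA) were in 14 of 17 windows of the mitotic roles and proliferation markers and in 19.2% of all. CCAAT was in 16 of those 17 and in 37.4% of all, but also in 6 of 8 licensing windows, so it did not separate these classes. The E2F-like letters were in 2 of 6 windows of G1/S control and 0 of 3 of nucleotide supply. These are matches of letters, not sites of binding.

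The 11 libraries held 14814409 to 22600405 counts, and levels are given as CPM, counts scaled to the size of each library with TMM factors. Tet2 was read to check the labels and stood at 91.2, 128 and 45.1 CPM in WT, 19.0, 18.5 and 19.3 in Tet2het, 131 and 107 in Akita and 66.5, 108 and 34.2 in the double-label libraries. Tet2het and the double-label libraries share a Tet2 label but not a Tet2 level, so each direction below is one between libraries labelled in this way. In WT, Tet2het and the double label, the library numbered 3 stood apart. Its share of counts from mitochondrial genes was 3.43%, 4.46% and 9.76% against 1.36% to 1.94% in the 8 others, and no Akita sample has this number. Against numbers 1 and 2 of their own label they held more erythroid and less primary granule RNA, with values given further on, and results are given with and without them. Kit, a receptor of early progenitors, stood between 76.1 and 132 CPM in all libraries and Cd34, another progenitor marker, between 31.9 and 247. In bulk RNA, fewer cells of a type and less RNA per cell cannot be told apart.

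**Figure D1:**
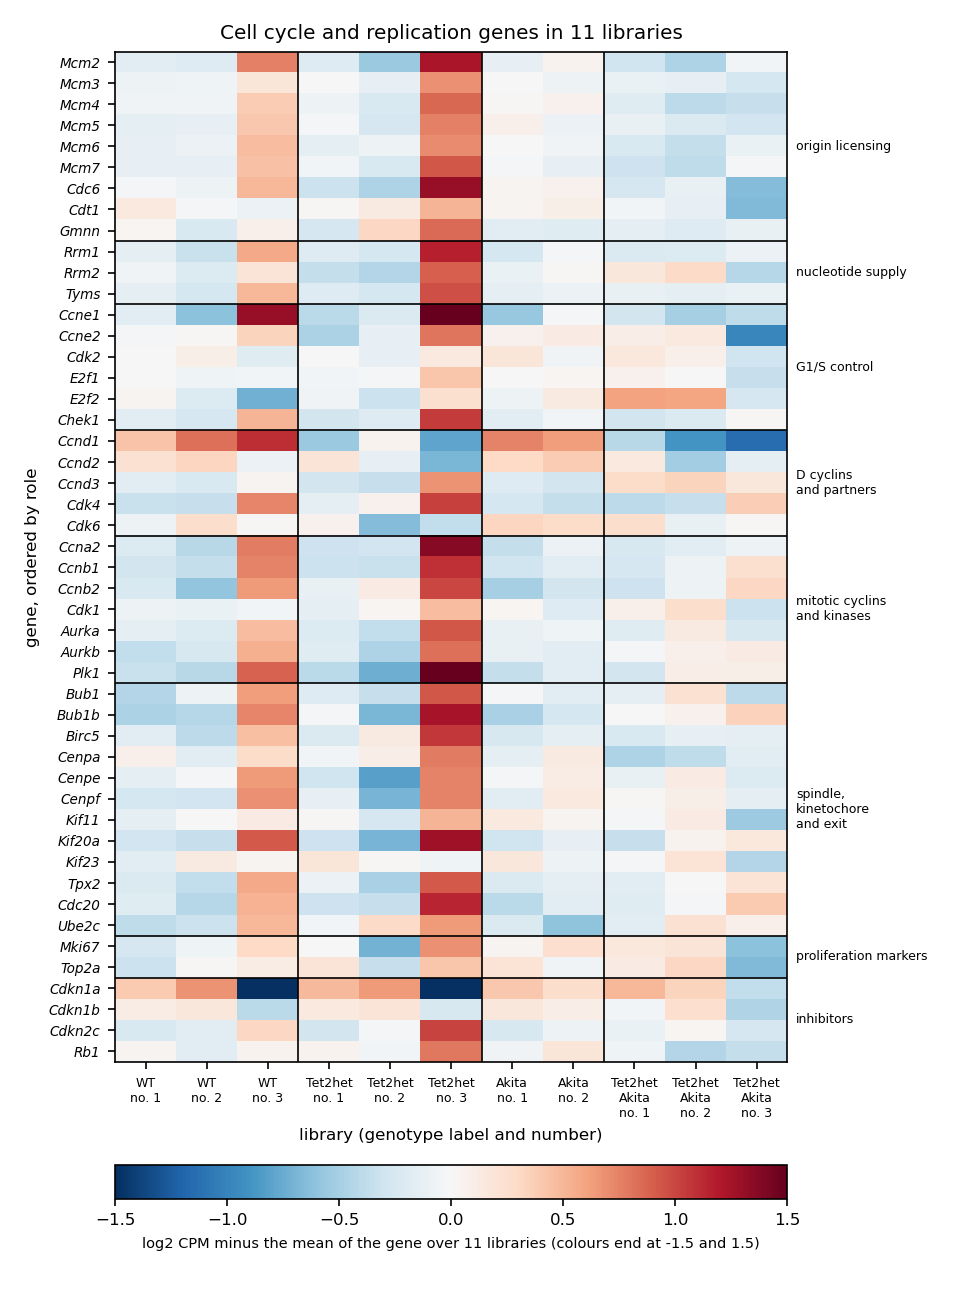
Each row is a member, ordered by role, and each column a library. Colour is log2 CPM minus the mean of the gene over the 11 libraries. The columns of WT number 3 and Tet2het number 3 are red over most roles and dark blue for Cdkn1a, while double-label number 3 is not, and Ccnd1 is blue in 5 of the 6 libraries with a Tet2 label.

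No member passed an adjusted p of 0.05 in any of the comparisons by edgeR's quasi-likelihood test with Benjamini-Hochberg adjustment over all 15630 genes tested, and all 48 had passed its filter on low counts. Over all genes the share called was 0.0256% for Tet2het against WT, 0% for Akita against WT, 0.0448% for the double label against WT, 0.262% for the double label against Tet2het and 0.0384% for the double label against Akita, so a count of 0 among 48 is near the background. At an unadjusted p under 0.05 edgeR gave 1, 0, 1, 2 and 1 of 48 members in the same order, against 2.12%, 0.429%, 8.79%, 10.9% and 6.6% of all genes. DESeq2 called 1 member in each of 2 comparisons, the double label against WT (2.61% of all genes) and against Akita (1.21%), and limma voom called 0. Without the libraries numbered 3, edgeR called 1 member for the double label against WT (3.44% of all genes), 1 against Akita (2.89%) and 3 against Tet2het (7.71%). That fit has 2 libraries per label and 15092 genes tested. The members named by these calls are Ccnd1, E2f2, Ccnd3 and Rrm2. E2f2, Ccnd3 and Rrm2 were the 3 called against Tet2het, a share of the 48 no larger than that of all genes. Genes of maturing neutrophils moved with the double label: the summed level of 16 such genes, none at 0 in every library, was 49636 to 75141 CPM there and 2246 to 32683 CPM in the 8 other libraries. Their part in the values of E2f2, Ccnd3 and Rrm2 was not tested. The interaction of both labels, which asks whether the Akita difference depends on the Tet2 label, gave 0 calls among members and 0% of all genes, and 0 members against 3.44% of all genes at an unadjusted p under 0.05 by edgeR, and 0 members by DESeq2, which called 0.365% of all genes, and by voom.

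Ccnd1 (cyclin D1; ENSMUSG00000070348.5; GRCm38 chromosome 7, 144929931 to 144939925, minus strand, protein coding) had the largest fitted difference from WT of any member in both Tet2het and the double-label libraries. Its level was 25.7, 33.9 and 41.2 CPM in WT and 31.9 and 29.5 in Akita. It was 13.0, 19.9 and 11.1 CPM in Tet2het and 14.3, 10.3 and 8.68 in the double-label libraries. Every one of the 6 libraries with a Tet2 label lay below every one of the 5 without it, at 8.68 to 19.9 against 25.7 to 41.2 CPM. Ccnd1 was the only one of the 48 members whose levels did not overlap between these 2 sets, and 0.448% of all genes did not overlap with the higher levels under the Tet2 label and 0.326% with the lower. This split was chosen after the Ccnd1 levels had been seen, so the lack of overlap describes them and is not a test. In Tet2het alone, Ccnd1 was the 1 member of 48 to lie below WT without overlap, a share no larger than the 2.18% of all genes. The levels of Tet2het and the double label overlapped, as did those of WT and Akita.

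For the double label against WT, Ccnd1 had a log2 difference of -1.60, SE 0.30, adjusted p = 0.103 by edgeR. The call was made with the replicate number as a block (-1.61, edgeR adjusted p = 0.0378, a fit that called 1.63% of all genes), without the libraries numbered 3 (-1.28, edgeR adjusted p = 0.0395) and by DESeq2 (-1.57, adjusted p = 2.01e-04). Over 21 alternatives the log2 difference ran from -1.82 to -1.28 and the adjusted p of edgeR, voom or DESeq2 from 2.01e-04 to 0.352, and 3 of the 21 called it. Within library numbers 1, 2 and 3 the difference was -0.84, -1.71 and -2.23, so Ccnd1 was lower in each of the 3 pairs. Against Akita, the double label had a log2 difference of -1.47, SE 0.33, adjusted p = 0.299 by edgeR, with adjusted p = 0.0393 without the libraries numbered 3 and 0.00929 by DESeq2, and the range over alternatives was 0.00929 to 1. Tet2het against WT gave a log2 difference of -1.20, SE 0.30, adjusted p = 0.916 by edgeR and was called under none of 21 alternatives, with within-number differences of -0.98, -0.77 and -1.89. The double label against Tet2het was not called either (log2 difference of -0.40, SE 0.30, adjusted p = 0.629, edgeR), nor was Akita against WT (log2 difference of -0.13, SE 0.33, adjusted p = 1, edgeR).

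Averaged over both Akita states, a contrast chosen after the Ccnd1 levels had been seen, the Tet2 label went with a log2 difference of -1.33 (edgeR adjusted p = 0.14, 0.0256% of all genes called). It was called by DESeq2 (-1.31, adjusted p = 3.36e-05, 0.891% of all genes) and by edgeR with no low count filter (-1.33, adjusted p = 0.0421, 0.0618%), with a range over its alternatives of 3.36e-05 to 1. The Ccnd1 levels led to this contrast, so its p-values for Ccnd1 describe those levels and are not a test. Genes of the B lineage moved in part with the Tet2 label: the summed level of 13 markers was 72.4 to 142 CPM in the double-label libraries and 217 to 252 CPM in WT and Akita, but 232 to 438 CPM in Tet2het, where Ccnd1 was low too. None of these 13 markers was at 0 in every library, and their part in the Ccnd1 result was not tested. The gene LTO1 overlaps Ccnd1 on the other strand over 1771 bases and stood at 21.4 to 33.1 CPM in all libraries. Whether reads were counted by strand is not stated, so reads of this pair may be mixed.

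**Figure D2:**
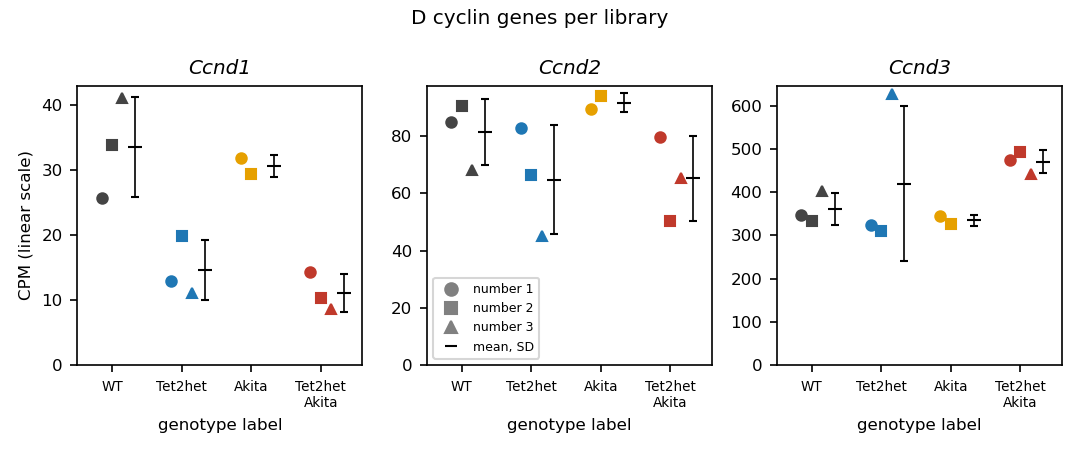
CPM on a linear scale from 0 for the 3 D cyclin genes, 1 point per library, with marker shape for the library number and bars for the mean and SD of each genotype label. For Ccnd1 the 6 points with a Tet2 label lie between 8.68 and 19.9 CPM, all below the 5 others; for Ccnd3 the double-label points lie above WT and Akita, and Tet2het number 3 lies above all.

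Of the other D cyclins, Ccnd3 lay higher and Ccnd2 lower in the double label than in WT, neither called with all libraries. Ccnd3 (cyclin D3; ENSMUSG00000034165.16; GRCm38 chromosome 17, 47505051 to 47599691, plus strand, protein coding), the D cyclin gene with the highest level per length, was at 475, 494 and 442 CPM in the double-label libraries. It was at 349, 334 and 403 CPM in WT, 344 and 326 in Akita and 323, 309 and 627 in Tet2het. The double-label levels lay above all of WT and Akita and overlapped with Tet2het only through its number 3. Ccnd3 was higher in the double label than in Tet2het without the libraries numbered 3 (log2 difference of 0.62, SE 0.12, adjusted p = 0.0226, edgeR, 7.71% of all genes called), and not called with them (log2 difference of 0.16, SE 0.27, adjusted p = 0.829, edgeR). Within numbers 1, 2 and 3 this difference was 0.55, 0.68 and -0.50, so it turned in number 3, and the adjusted p over 21 alternatives was 0.0226 to 0.983 with 1 call. Against WT the differences within numbers were 0.45, 0.57 and 0.13 (log2 difference of 0.38, SE 0.27, adjusted p = 0.806, edgeR; 0.0593 without number 3).

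Ccnd2 (cyclin D2) was at 85.1, 90.6 and 68.4 CPM in WT, 83.0, 66.3 and 44.9 in Tet2het, 89.4 and 94.1 in Akita and 79.9, 50.4 and 65.4 in the double-label libraries. Its double-label levels lay below both Akita libraries and overlapped with WT and Tet2het (log2 difference of -0.49, SE 0.29, adjusted p = 0.864, edgeR, against Akita). Per kilobase of exon, WT held 41.2 ± 4.13 CPM of Ccnd3 (SD, n = 3), 8.65 ± 1.23 of Ccnd2 and 7.14 ± 1.64 of Ccnd1, and in the double-label libraries these were 53.6 ± 3.03, 6.93 ± 1.57 and 2.35 ± 0.612. Ccnd3 thus exceeded the other D cyclins in both groups, with no overlap of these ranges of mean and SD. Of the partner kinases, Cdk6 was at 253, 320.0 and 269 CPM in WT, 278, 169 and 206 in Tet2het, 332 and 321 in Akita and 319, 246 and 269 in the double-label libraries. Akita lay just above WT in Cdk6 without overlap, the 1 such member of 48 in that comparison, a share no larger than the 4.78% of all genes higher in this way (log2 difference of 0.22, SE 0.24, adjusted p = 1, edgeR). Cdk4 was at 193, 191 and 402 CPM in WT, 218, 253 and 492 in Tet2het, 201 and 189.8 in Akita and 185, 191 and 314 in the double-label libraries, highest in the 3 libraries numbered 3.

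Among the genes of G1/S control, E2f2, which encodes an activating E2F factor, was highest in 2 of the 3 double-label libraries (ENSMUSG00000018983.9; GRCm38 chromosome 4, 136172394 to 136196057, plus strand, protein coding). It was at 280.1, 277 and 154 CPM there, at 189, 160.2 and 112 in WT, 178, 148 and 218 in Tet2het and 175 and 202 in Akita. Numbers 1 and 2 of the double label lay above all 9 other libraries, and number 3 lay among them. The share of all genes with this split was not counted. Without the libraries numbered 3, E2f2 was higher in the double label than in Tet2het (log2 difference of 0.78, SE 0.15, adjusted p = 0.0214, edgeR, 7.71% of all genes called) and stood near the threshold against WT (log2 difference of 0.68, SE 0.15, adjusted p = 0.0502, edgeR). With all libraries neither was called (log2 difference of 0.39, SE 0.29, adjusted p = 0.629 against Tet2het and log2 difference of 0.63, SE 0.29, adjusted p = 0.594 against WT, edgeR). Within numbers 1, 2 and 3 the difference was 0.57, 0.79 and 0.46 against WT and 0.66, 0.91 and -0.50 against Tet2het, where the adjusted p over 21 alternatives was 0.0214 to 0.925 with 1 call. E2f1, a related activator, was at 70.2, 66.5 and 67.9 CPM in WT, 68.1, 68.8 and 92.8 in Tet2het, 69.4 and 71.2 in Akita and 73.1, 70.2 and 54.9 in the double-label libraries, a narrower range in which no group stood apart.

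Ccne1 (cyclin E1, which starts S phase with CDK2) differed by library number in WT and Tet2het, and by label within number 3. There the double label differed by -2.19 from Tet2het and by -1.69 from WT on the log2 scale, with 1 library each. It was at 54.3, 39.6 and 150.2 CPM in WT, 45.6, 51.9 and 213 in Tet2het, 40.9 and 59.7 in Akita and 50.2, 42.9 and 46.5 in the double-label libraries. WT number 3 and Tet2het number 3 exceeded all 9 others, and double-label number 3 did not. For the double label against Tet2het the log2 difference was -1.15 with all libraries and -0.07 without those numbered 3 (edgeR adjusted p = 0.54 and 0.874). Ccne2, Cdk2 and the checkpoint kinase gene Chek1 completed this role, with group means of 37.7 to 47.3, 104 to 111 and 35.4 to 49.6 CPM. These means hide differences of number 3 from the mean log2 CPM of numbers 1 and 2. In the order WT, Tet2het and double label, Ccne2 differed by 0.33, 1.10 and -1.10. Cdk2 differed by -0.23, 0.21 and -0.42, and Chek1 by 0.72, 1.29 and 0.26.

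The 9 genes of origin licensing lay lower in the double label than in WT, by a small amount and with 0 calls. The fitted log2 difference was below 0 for 9 of 9, with a median of -0.31 against -0.05 over all genes tested. Without the libraries numbered 3 it was again below 0 for 9 of 9, with a median of -0.15 against -0.01 over all genes. Leaving out each library in turn kept all 9 below 0, with medians of -0.41 to -0.09, and RLE and upper quartile factors gave 9 of 9 too (medians -0.28 and -0.32). These counts describe the list and are not a test, and the comparisons below share libraries. The maturing neutrophil genes (49636 to 75141 CPM in the double label, 2246 to 32683 elsewhere) and the B lineage genes (72.4 to 142 against 217 to 438 CPM) moved with this label, and their part in the licensing values was not tested. Within numbers 1, 2 and 3, licensing genes were lower in the double label than in WT for 8, 8 and 9 of 9 genes. Against Akita, 8 of 9 were lower with and without number 3 (medians -0.20 and -0.23). Against Tet2het, 9 of 9 were lower with number 3 (-0.52) and 8 of 9 without it (-0.13).

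Single licensing genes show how small this was. Mcm4, a helicase subunit, was at 276, 276 and 373 CPM in WT, 271, 245 and 519.7 in Tet2het, 289.8 and 298 in Akita and 252, 218 and 225 in the double-label libraries. Its double-label levels lay below WT and Akita without overlap (log2 difference of -0.41, SE 0.29, adjusted p = 0.796, edgeR, against WT). Mcm3 and the loader gene Cdc6 also lay below WT without overlap, and with Ccnd1 and Cenpa they made 5 such members of 48 that were lower, against 8.57% of all genes; Ccnd3 was the 1 higher, against 9.55%. Against Akita 11 members were lower in this way, 6 of them of licensing, against 19.9% of all genes, and 4 were higher, against 16.6%. Against Tet2het 3 were lower, Cdt1, Cenpa and Rb1, against 6.68%, and 0 higher, against 8.48%.

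Mcm5 was at 340.2, 345 and 499 CPM in WT, 370.2, 316 and 633 in Tet2het, 395 and 353 in Akita and 347, 324 and 307 in the double-label libraries. Its double-label levels overlapped with WT (log2 difference of -0.28, SE 0.28, adjusted p = 0.871, edgeR). Mcm2 was at 252, 245 and 474 CPM in WT, 245, 190.2 and 654 in Tet2het, 257 and 291 in Akita and 228, 204 and 274 in the double-label libraries, and number 3 of WT and Tet2het exceeded all others. Cdt1, the loading factor, was at 215, 193 and 183 CPM in WT, 196, 213 and 277 in Tet2het, 200.4 and 207 in Akita and 189, 179 and 123 in the double-label libraries, lowest in double-label number 3, but a same-strand gene model, Gm20388, overlaps it over 5540 bases. Gmnn, which encodes the CDT1 inhibitor geminin, was at 69.0, 57.7 and 71.7 CPM in WT, 57.1, 84.5 and 122 in Tet2het, 60.9 and 59.7 in Akita and 61.8, 59.6 and 62.6 in the double-label libraries, with double-label and Akita levels in a narrow range. Cdc6 turned with number 3: for the double label against Tet2het the log2 difference was -0.73 with all libraries and 0.21 without those numbered 3. Per kilobase of exon in WT, Mcm2 stood at 46.5 ± 18.7 CPM and Mcm3 to Mcm7 between 86.0 ± 15.6 for Mcm4 and 109 ± 25.9 for Mcm6. The ranges of mean and SD overlapped among Mcm3 to Mcm7 and lay above that of Mcm2. The length joins all annotated exons of a gene, 6956 bases for Mcm2 and 3589 for Mcm4. Not divided by length, their WT means were 324 and 309 CPM. The lower Mcm2 value per kilobase thus rests on the length used.

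**Figure D3:**
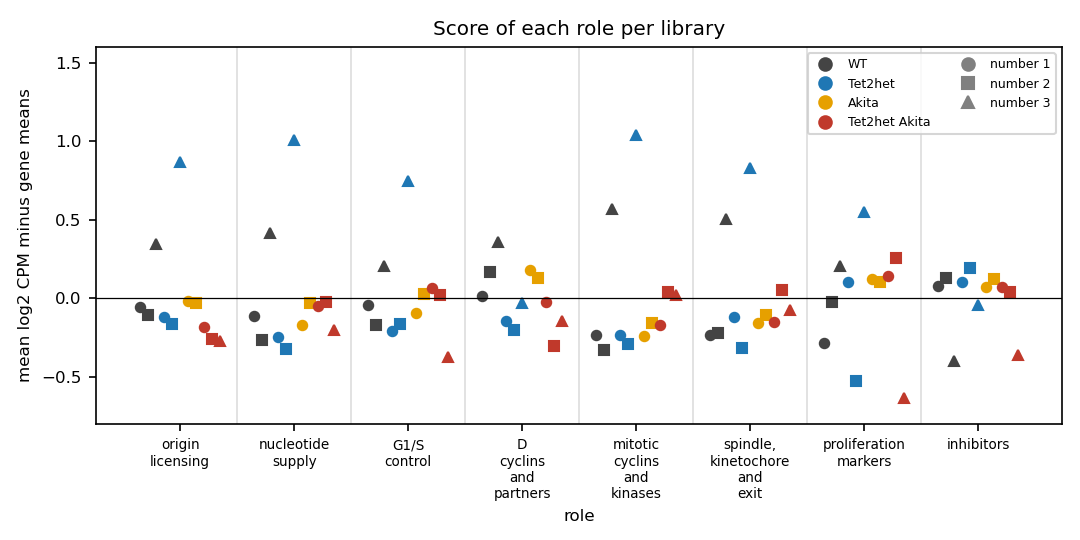
For each role the mean over its genes of log2 CPM minus the gene's mean, 1 point per library, coloured by genotype label with marker shape for the number. Tet2het number 3 is the highest point in 6 roles and WT number 3 the second in 5; the 3 double-label points of origin licensing, -0.18, -0.26 and -0.28, lie below all others.

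In nucleotide supply, Rrm2, the small subunit of ribonucleotide reductase (ENSMUSG00000020649.11; GRCm38 chromosome 12, 24708241 to 24714146, plus strand, protein coding), was at 307, 275 and 363 CPM in WT, 247, 235 and 588 in Tet2het, 297 and 322 in Akita and 357, 387 and 236 in the double-label libraries. Double-label numbers 1 and 2 lay above numbers 1 and 2 of all other labels. The share of all genes with this split was not counted, and double-label number 3 lay at the low end. Rrm2 was higher in the double label than in Tet2het without the libraries numbered 3 (log2 difference of 0.63, SE 0.13, adjusted p = 0.0264, edgeR, 7.71% of all genes called), and below it, not called, with them (log2 difference of -0.13, SE 0.36, adjusted p = 0.904, edgeR). Within numbers 1, 2 and 3 the difference was 0.53, 0.72 and -1.32, and the adjusted p over 21 alternatives was 0.0264 to 0.989 with 1 call. Rrm1, the large subunit, was at 327, 285 and 532 CPM in WT, 314, 299.5 and 808 in Tet2het, 300.0 and 355 in Akita and 310.1, 311 and 340.0 in the double-label libraries. It did not follow Rrm2 in numbers 1 and 2 of the double label (0.02 against Tet2het without number 3, edgeR adjusted p = 0.949). The third gene, Tyms (thymidylate synthase), was at 68.4, 66.6 and 68.6 CPM in the double-label libraries and at 61.2 to 69.2 CPM in numbers 1 and 2 of the other labels. Number 3 of WT and of Tet2het stood higher, by 0.70 and 1.19 on the log2 scale against the mean of their numbers 1 and 2. Within number 3 the double label thus differed by -0.59 from WT and by -1.07 from Tet2het.

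The 7 mitotic cyclins and kinases lay on the other side from licensing once number 3 was left out. For the double label against WT, 2 of 7 were above 0 with all libraries (median -0.14) and 7 of 7 without number 3 (median 0.21), with 0 calls in either. The 12 genes of spindle, kinetochore and exit went from 3 of 12 (-0.12) to 11 of 12 (0.19). Within numbers 1, 2 and 3, 4, 7 and 0 of the 7 mitotic cyclins and kinases were higher in the double label than in WT (medians 0.02, 0.34 and -0.50). Of the 12 genes of spindle, kinetochore and exit, 9, 11 and 0 were higher (0.10, 0.33 and -0.54). Both medians were thus larger in number 2 than in number 1. The mean score of both mitotic roles minus that of licensing was -0.17, -0.16 and 0.18 in WT, -0.05, -0.14 and 0.04 in Tet2het, and -0.17 and -0.10 in Akita. It was 0.02, 0.31 and 0.24 in the double-label libraries. Numbers 1 and 2 of the double label were above numbers 1 and 2 of every other label in this score, and number 3 of WT and of Tet2het lay between them. The score was formed after the values of the roles were known, and it has no test.

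No mitotic cyclin or kinase was called in any comparison, with or without number 3. Cdk1 was at 100, 98.9 and 103 CPM in WT, 96.7, 108 and 146 in Tet2het, 108 and 92.3 in Akita and 112, 127 and 84.5 in the double-label libraries. Ccnb2 (cyclin B2) was at 91.7, 71.3 and 167 CPM in WT, 99.1, 116 and 214 in Tet2het, 75.8 and 88.4 in Akita and 86.4, 102 and 133 in the double-label libraries, and Ccna2 (cyclin A2) was at 139, 120.4 and 273 CPM in WT, 129, 131 and 412 in Tet2het, 125 and 150.2 in Akita and 135, 144 and 152 in the double-label libraries. In all 3 genes the groups of each comparison overlapped, and Tet2het number 3 was the highest library in each. For Cdk1 the double label against WT gave a log2 difference of 0.10, SE 0.22, adjusted p = 0.948 by edgeR, and 0.26 with adjusted p = 0.33 without number 3.

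Cenpa, the histone variant that marks centromeres, was the gene of its role that stayed below 0 for the double label against WT without number 3. It was at 179.9, 153 and 207 CPM in WT, 166, 184 and 293 in Tet2het, 156 and 187 in Akita and 124, 131 and 152 in the double-label libraries. The double-label levels, at 124 to 152 CPM, lay below those of WT, Tet2het and Akita without overlap. Of all genes, 8.57%, 6.68% and 19.9% were lower in this way in these comparisons taken 1 at a time. Cenpa was just lower in double-label number 3 than in WT number 2, at 152 against 153 CPM. It was 1 of 2 members with an unadjusted p under 0.05 for the double label against Tet2het (log2 difference of -0.66, SE 0.25, adjusted p = 0.371, edgeR; -0.45 and 0.0989 without number 3). Within numbers 1, 2 and 3 it differed by -0.42, -0.48 and -0.95 there and by -0.53, -0.22 and -0.45 against WT. Birc5 (survivin, of the chromosomal passenger complex) was at 100.2, 84.9 and 153 CPM in WT, 95.9, 123 and 233 in Tet2het, 94.1 and 101 in Akita and 95.3, 103 and 101 in the double-label libraries. Ube2c, a ubiquitin-conjugating enzyme of mitotic exit, was at 70.9, 73.8 and 129.8 CPM in WT, 89.4, 112 and 144 in Tet2het, 79.1 and 60.8 in Akita and 81.7, 108 and 97.6 in the double-label libraries, above both Akita libraries in each double-label library and overlapping with WT and Tet2het.

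No difference between labels was called for the proliferation markers. Mki67, which encodes the Ki-67 antigen, was at 691, 786 and 1011 CPM in WT, 828, 503 and 1321 in Tet2het, 845 and 979 in Akita and 918, 939 and 538 in the double-label libraries. Top2a (topoisomerase II alpha) was at 285, 359 and 384 CPM in WT, 407, 279 and 473 in Tet2het, 410.0 and 344 in Akita and 386, 442 and 225 in the double-label libraries. In both genes the groups overlapped, and the lowest 2 libraries were Tet2het number 2 and double-label number 3. For the double label against WT, Mki67 had a log2 difference of -0.05, SE 0.35, adjusted p = 0.987 and Top2a a log2 difference of 0.04, SE 0.29, adjusted p = 0.99 by edgeR. The intervals these SE give allow changes of either sign.

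Among the inhibitors, Cdkn1a (p21, a target of p53; ENSMUSG00000023067.13; GRCm38 chromosome 17, 29090976 to 29100727, plus strand, protein coding) differed by library number, and no difference between labels was called. It was at 160.4, 194 and 41.1 CPM in WT, 171, 191 and 36.5 in Tet2het and 173, 154 and 94.2 in the double-label libraries. It was at 162 and 146 CPM in Akita. The 3 libraries numbered 3 were the lowest of the 11, and the 8 others lay between 146 and 194 CPM. Without number 3 the differences between labels were -0.20 to 0.08 on the log2 scale with adjusted p of 0.553 to 1 (edgeR). Rb1, the retinoblastoma gene, was at 87.8, 76.2 and 89.1 CPM in WT, 88.9, 83.4 and 149 in Tet2het, 82.4 and 97.1 in Akita and 81.5, 63.2 and 66.6 in the double-label libraries. Its double-label levels lay below Tet2het and Akita without overlap and it was the second member with an unadjusted p under 0.05 against Tet2het (log2 difference of -0.60, SE 0.24, adjusted p = 0.402, edgeR). However, Lpar6 and Rcbtb2 overlap it on the other strand and Gm17233 on the same strand. Cdkn1b (p27) was at 108, 113 and 76.0 CPM in WT, 111, 114 and 84.7 in Tet2het, 112 and 108 in Akita and 97.0, 119 and 73.4 in the double-label libraries, lowest in the 3 libraries numbered 3. Cdkn2c (p18) was at 29.2, 30.4 and 42.5 CPM in WT, 28.3, 33.5 and 68.8 in Tet2het, 28.9 and 32.5 in Akita and 31.9, 34.8 and 28.7 in the double-label libraries, with Tet2het number 3 above all others.

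The libraries numbered 3 held the largest pattern in these genes. Set against the mean log2 CPM of numbers 1 and 2 of the same label, number 3 was higher for 40 of 48 members in WT (median log2 difference 0.54, against 0.02 over all genes) and for 42 of 48 in Tet2het (1.05 against 0.02). In the double label it was higher for 22 of 48 (-0.08 against 0.01). With 1 library of this number per label these are values with no test. In the order WT, Tet2het and double label, Ccne1 differed by 1.69, 2.13 and 0.00. The mitotic kinase gene Plk1 differed by 1.26, 2.17 and 0.18. Mki67 differed by 0.46, 1.03 and -0.79, and Top2a by 0.26, 0.49 and -0.87, so both markers were higher in number 3 of WT and Tet2het and lower in that of the double label. Cdkn1a differed by -2.10, -2.30 and -0.79 and Cdk4 by 1.07, 1.07 and 0.74, the same way in all 3.

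Markers of cell types moved with the number as well. The erythroid list of 21 genes had a median of 1.56, 2.60 and 1.55 in number 3 against numbers 1 and 2, in the same order of labels, with 15, 21 and 20 genes higher. Its summed level was 8502, 14375 and 4187 CPM in number 3 and 933 to 4903 CPM in the 8 others. The 8 neutrophil primary granule genes had medians of -2.63, -3.60 and -0.67, and the 16 genes of maturing neutrophils -3.09, -2.98 and 0.23. The 12 genes of stem and multipotent progenitors had medians of 0.16, -0.47 and 0.86, with 9, 3 and 10 higher, and thus lay on opposite sides in Tet2het and the double label. The 13 genes of the B lineage had medians of -0.29, -0.30 and 0.31. No gene of these lists was at 0 in every library. Their part in the cell cycle values was not tested.

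**Figure D4:**
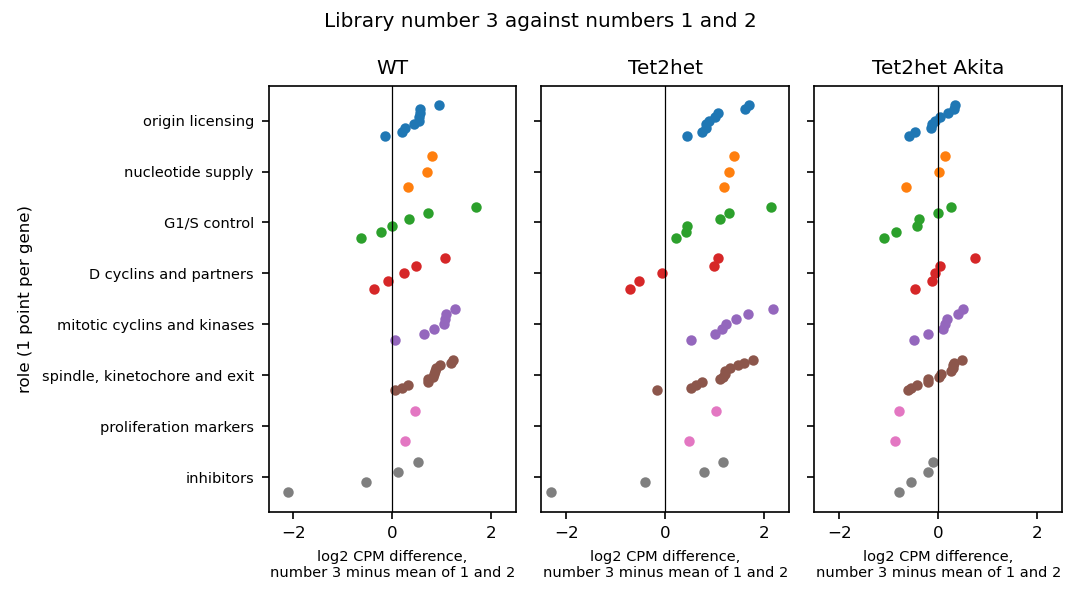
For each label with a library numbered 3, the difference of number 3 in log2 CPM from the mean log2 CPM of numbers 1 and 2, 1 point per member, by role. In WT and Tet2het nearly all points of licensing, nucleotide supply and mitosis lie right of 0 and Cdkn1a lies at -2.10 and -2.30; in the double label the points lie around 0.

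The direction of the whole list turned with number 3 in several comparisons. For Tet2het against WT, 43 of 48 members were above 0 with all libraries (median 0.19, all genes 0.03) and 22 of 48 without number 3 (-0.01, all genes -0.01). For Akita against WT, 13 of 48 were above 0 with all libraries (-0.13) and 42 of 48 without number 3 (0.09), where WT number 3 has no Akita counterpart. Taken within numbers 1 and 2, fewer members were higher in Akita than in WT, 27 and 36 of 48. Their medians were 0.03 and 0.11, against -0.007 and -0.003 over all genes. For the double label against Tet2het, 5 of 48 were above 0 with all libraries (-0.33, all genes -0.08) and 27 of 48 without (0.10, all genes -0.01). For the double label against WT the counts were 11 of 48 (-0.17) and 29 of 48 (0.10), and against Akita 21 of 48 (-0.07) and 27 of 48 (0.02). Within number 3 alone, 43 of 48 members were higher in Tet2het than in WT (0.46), and 3 of 48 were higher in the double label than in Tet2het (-0.95). Within numbers 1 and 2 the medians of all comparisons were -0.11 to 0.13. Leaving out a single library also turned it: without Tet2het number 3, 27 of 48 members were above 0 for the double label against Tet2het (0.06), and without WT number 3, 26 of 48 for the double label against WT (0.06).

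**Figure D5:**
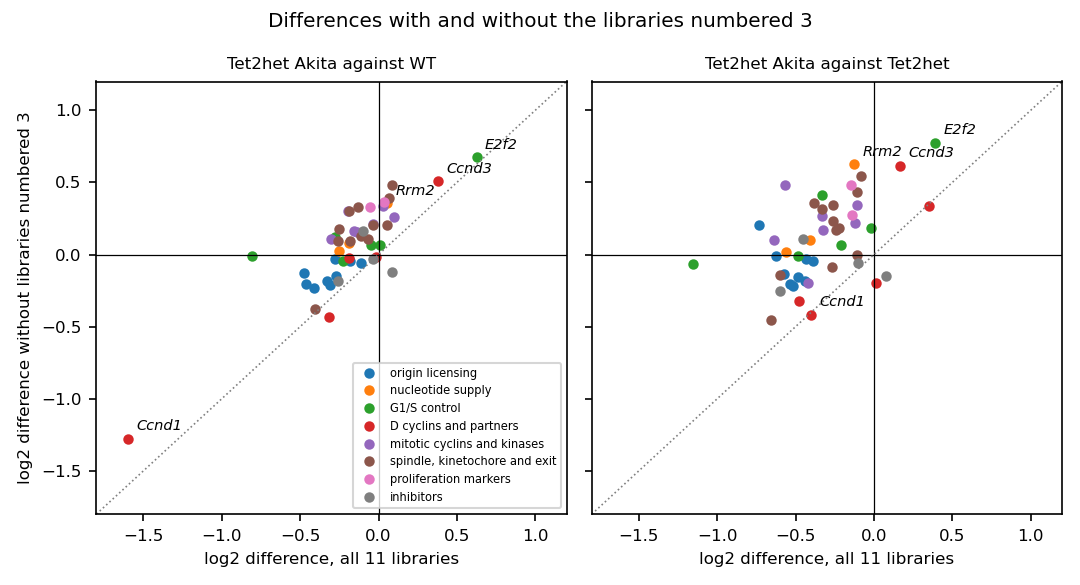
Fitted log2 difference of each member with all 11 libraries (x axis) and without the libraries numbered 3 (y axis), coloured by role; the dotted line marks equal values. In both comparisons most points lie above the line, Ccnd1 stays far below 0 on both axes against WT, and E2f2 and Ccnd3 stay above 0.

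Other genes of the same pathways were read from wider lists. Of 38 further genes of the replication machinery (subunits of ORC, GINS, the polymerases and the like), 0 were called by edgeR in any of these comparisons, with 2 above 0 for the double label against WT (median -0.27) and 10 without number 3 (-0.09, all genes -0.01). Of 39 further genes of mitosis, 5 were above 0 with all libraries (-0.17) and 28 without number 3 (0.13), again with 0 calls. Of 20 tested genes of E2F and pocket proteins and further inhibitors, 0 were called with all libraries. Without number 3, 1 of the 20 was called for the double label against Tet2het, a share no larger than the 7.71% of all genes called there: E2f7, an atypical E2F that represses transcription. E2f7 was at 21.5, 24.4 and 15.5 CPM in WT, 22.5, 17.2 and 13.1 in Tet2het, 25.7 and 24.3 in Akita and 40.0, 37.1 and 15.3 in the double-label libraries. Numbers 1 and 2 of the double label lay above all 9 other libraries, among which double-label number 3 was at 15.3 CPM. The share of all genes with this split was not counted. E2f7 was higher in the double label than in Tet2het without number 3 (log2 difference of 0.95, SE 0.17, adjusted p = 0.0159, edgeR) and not called with it (log2 difference of 0.81, SE 0.36, adjusted p = 0.462, edgeR), with adjusted p of 0.0159 to 0.879 over 21 alternatives. Of 16 p53 targets beside Cdkn1a, 9 were above 0 for the double label against WT (0.01) and 11 without number 3 (0.16), with 0 calls in either. The replication list leaned the way of the licensing members and the mitosis list the way of the mitotic members without number 3, and neither was tested as a list.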

How the data were processed

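The authors deposited 1 table of raw read counts per gene, with whole numbers and no normalization per the file headers and values. Per the submitters' processing notes, Trimmomatic 0.32 and TopHat2 2.1.1 were used with build GRCm38. How reads were assigned to genes, with which annotation and whether by strand, is not given in the sources used here. Counts of overlapping genes are uncertain for this reason. Members other than Ccnd1, Cdt1 and Rb1 also overlap annotated genes, among them Ccnd2, Ccnd3, Cdk4, Cdk6, Ccna2, Rrm1 and Ube2c. Of 12 labelled samples 11 matched a column and were used. Double-label sample 4 was not analysed here, and 1 column was left out because it matches no label: its name reads as Akita number 3, and whether it holds such a library or double-label sample 4 is not known. Akita thus has 2 libraries here. Symbols and exon lengths came from GENCODE M21, which matched 30875 of 31060 identifiers without their version. The exon length of a gene joins the exons of all its annotated transcripts.

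The main test was the quasi-likelihood test of edgeR 4.0.16 (R 4.3.3), in which the 4 groups shared 1 model. Low counts were removed with filterByExpr, which left 15630 genes, and libraries were scaled with TMM; glmQLFit ran with its robust option. P-values were adjusted by Benjamini-Hochberg over all genes tested, and a call needs an adjusted p under 0.05. An SE is the log2 difference over the square root of F. The test was tried on simulated data with known fold changes. DESeq2 1.42.0, limma 3.58.1 (voom), other scaling, other filters, robust=FALSE, both groups alone, each library left out, the libraries numbered 3 left out and the replicate number as a block were alternatives. A score is the mean over genes of log2 CPM (prior count 2) minus the gene's mean.

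The members and gene lists were chosen with earlier results of these data known. Levels per library are given for members called with all libraries, with the block or without number 3, for the member with the smallest p of each role in each comparison, and for Mki67, Top2a, Cdk1, Mcm5, Ccnd1 and Cdkn1a. Pathway genes are given by counts and named where called. The labels number the replicates but give no meaning for the number. The pairing was checked by correlating how same-numbered libraries deviate from their group means. Tet2het and WT gave 0.485 to 0.791, the double label and WT 0.340 to 0.589, and the double label and Tet2het 0.318 to 0.533. Each exceeded 0.1, and these 3 groups were treated as paired only in the block alternative and in the differences within numbers. The main test had no term for the number, so its SE and p-values ignore it. With the block, the share of all genes called rose from 0.0448% to 1.63% for the double label against WT. For the double label against Tet2het it rose from 0.262% to 4.5%. Libraries numbered 1 and 2 correlated across numbers as well, at 0.211 to 0.691 between these groups, so the check does not separate number 1 from 2 and the block assumes their pairing. The pairs of Akita and WT (-0.351 and 0.0661) did not exceed 0.1, but the block applied its term for the number to Akita too. All replicates differed by more than counting noise, with a chi-square per gene of 15.6 or more.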

Additional observations from a re-analysis of the deposited data

How the results depend on the processing

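Of 6960 values of a member in a comparison under 21 alternatives, 6949 kept their side of the threshold with no clear turn of direction, 10 passed it that had not, and 2 turned, of which Rrm2 was also among those that passed. In both that turned, the double label against Tet2het, leaving out the libraries numbered 3 gave 0.21 for Cdc6 and 0.63 for Rrm2. A turn was counted for an uncalled gene only where both values lay over 1 SE from 0, and 669 values changed sign in all. The count of members called for the double label against WT went from 0 to 1 by DESeq2, with the replicate block and without number 3, and against Akita from 0 to 1 by DESeq2 and without number 3, in each case Ccnd1. Against Tet2het it went from 0 to 3 without number 3. For the Tet2 label averaged over both Akita states it went from 0 to 1 by DESeq2 and with no low count filter. Ccnd1 was the member called, and its levels had been seen before this contrast was chosen. The causes of these changes in count were not tested. Leaving out any single library gave 0 to 0 members called in every comparison. With the replicate block, which assumes that the numbers pair the samples, the counts of the other comparisons stayed at 0, and no call other than that of Ccnd1 for the double label against WT changed. With 2 or 3 libraries per label and SEs with a median of 0.33 over the members for Tet2het against WT, small changes in cell cycle genes were not detectable.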
